A study of Sus scrofa with 6 samples.

Results

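Cholesterol is assembled in a long series of enzymatic steps that starts from acetyl-CoA, passes through mevalonate and farnesyl diphosphate to squalene, and ends with the closing and trimming of the sterol rings. In mammalian cells many of these enzymes share a transcription factor, SREBF2, which is held in the endoplasmic reticulum with SCAP and the INSIG proteins while sterols are plentiful and is released when sterols are low. Every dividing cell needs membrane sterol, and in the brain cholesterol is made locally because plasma lipoproteins largely do not cross the blood-brain barrier. The genes described here are 7 enzymes of this route (HMGCS1, IDI1, FDPS, FDFT1, SQLE, LSS and NSDHL) and the sterol sensor partner INSIG1, a list of 8 genes chosen by symbol. A gene was measured when the platform annotation gave a probe set its symbol alone. This held for 6 of the 8, among 6765 genes measured on the array. IDI1, the isomerase that interconverts the isoprene units, and LSS, the cyclase that closes the sterol rings, had no such probe set and count as not measured.

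The signals come from Affymetrix porcine arrays of 2 untreated pig cell lines. OBGF400 is a line described as neuroblasts from the olfactory bulb, with 3 arrays. PK15 is a non-neuronal line of epithelial origin that the study used as its somatic background, also with 3 arrays. Each array carried RNA pooled from separate cultures, 9 cultures per line in all, so the p-values measure the spread between pools of 1 line each. Both lines grew in 10% bovine calf serum with penicillin, streptomycin and gentamicin, OBGF400 in a mixture of DMEM and Ham's F12 and PK15 in minimum essential medium with amphotericin B, an antifungal that binds sterols. Line and medium therefore cannot be told apart in any difference given here. In RNA from whole cultures, fewer cells of a type and less RNA per cell cannot be told apart either.

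Markers separated the lines. All 8 epithelial markers, such as the keratin KRT8, were lower in OBGF400, with summed log2 signals of 18.6 to 19.3 per OBGF400 array and 107.2 to 107.7 per PK15 array, and 4 of them lay at the lower limit of the table in OBGF400. Of 7 measured mesenchymal markers 6 were higher in OBGF400 (sums of 83.5 to 83.6, and 31.0 to 32.7 in PK15). Among the 6, VIM was higher by only 0.11 (15.14 in OBGF400 and 15.04 in PK15). COL1A2, PDGFRB, ACTA2, CDH11 and THY1 were higher by 8.53 to 11.62, and COL3A1 was dim and not called. Of 6 measured neural markers UCHL1, NCAM1 and MAP2 were higher in OBGF400 and STMN1 lower, while ELAVL4 and GAP43 were at the lower limit in both lines (sums of 44.5 to 44.9 in OBGF400, and 24.1 to 24.9 in PK15). NES, DCX, TUBB3, SOX2, PAX6 and SYP had no probe set named with 1 symbol. Of 6 measured leukocyte markers LAPTM5, AIF1, SPI1 and CD74 were lower in OBGF400 and CD14 higher (sums of 16.9 to 17.3, and 40.7 to 41.3 in PK15). PTPRC, the pan-leukocyte marker, was at the lower limit in both lines. The actin 3′ probe set minus the 5′ one, a sign of RNA integrity, was -0.22 to -0.12 on OBGF400 arrays and 0.47 to 0.53 on PK15 arrays, whereas that of GAPDH was 0.17 to 0.22 in OBGF400 and 0.03 to 0.24 in PK15. The part of these marker and control differences in the results below was not tested.

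All 6 measured genes had lower signals in OBGF400 than in PK15. The falls ran from 5.14-fold for HMGCS1 to 14.9-fold for NSDHL, with a median difference of -2.81 on the log2 scale, beside -0.002 over all 6765 genes. Each of the 6 passed the test (limma, adjusted p under 0.05 over 23999 probe sets), whereas 35.4% of all genes were called lower and 22.7% higher in OBGF400. All 6 fell by at least 2 log2 units, which is 4-fold, a fall called for 9.93% of all genes. For each of the 6, every OBGF400 array lay below every PK15 array, as it did for 40.1% of all genes. The narrowest gap, between the highest OBGF400 array and the lowest PK15 array of a gene, was 2.29. Bright genes were called more often: of 2865 genes with a mean signal of 7 to 11, the range around these 6, 47.2% were called lower. The same 6 were lower under all 18 processing alternatives. They are not 18 independent checks: the filters on dim probe sets, the variance model, the replicate block and the stricter threshold leave each difference unchanged.

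**Figure D1:**
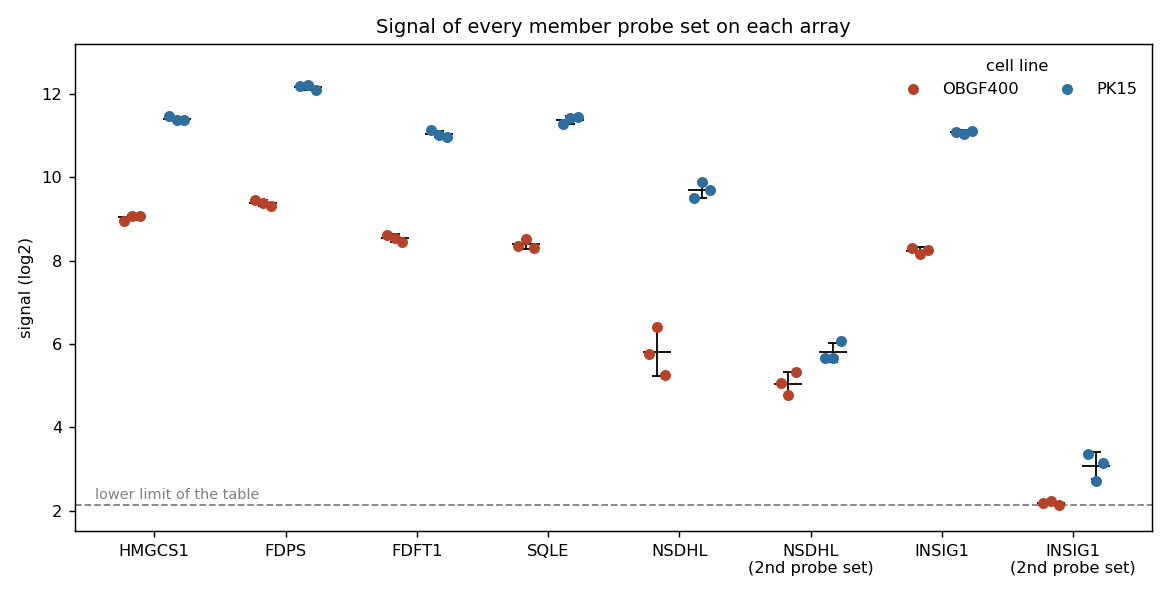
Log2 signal of the 8 probe sets of the 6 measured genes on each array, with OBGF400 (red) left of PK15 (blue); black bars mark the mean and SD of 3 arrays, and the dashed line is the lower limit of the table. In the 6 probe sets that stand for a gene the red points lie at least 2.29 below the blue ones, while the second probe sets of NSDHL and INSIG1 are dim and differ by under 1.

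The first listed enzyme is HMGCS1, the cytosolic synthase that condenses acetoacetyl-CoA with acetyl-CoA to HMG-CoA. Its log2 signals were 8.96, 9.08 and 9.08 on the OBGF400 arrays, against 11.46, 11.37 and 11.38 on the PK15 arrays. The PK15 arrays lay above all OBGF400 arrays, and the 3 values of a line were close together. The difference was -2.36 (95% interval -2.49 to -2.24, limma adjusted p = 1.3e-05), the smallest fall of the 6.

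FDPS makes farnesyl diphosphate, the branch point from which sterols, dolichol, ubiquinone and prenylated proteins are supplied. It had signals of 9.45, 9.39 and 9.31 in OBGF400, against 12.19, 12.22 and 12.09 in PK15, with no overlap. The difference was -2.78 (95% interval -2.93 to -2.64, limma adjusted p = 1.23e-05), or 6.88-fold lower. FDFT1, squalene synthase, joins a pair of farnesyl groups and is the first enzyme devoted to sterols. Its signals were 8.63, 8.54 and 8.45 in OBGF400, against 11.13, 11.02 and 10.98 in PK15. Again the lines did not overlap, and the difference was -2.50 (95% interval -2.68 to -2.33, limma adjusted p = 2.97e-05).

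SQLE, the monooxygenase that turns squalene into its epoxide and a rate-limiting enzyme of the sterol branch, had signals of 8.35, 8.53 and 8.31 in OBGF400, against 11.27, 11.41 and 11.44 in PK15. All 3 PK15 arrays were above all OBGF400 arrays. The difference was -2.98 (95% interval -3.20 to -2.76, limma adjusted p = 3.35e-05), a signal 7.90-fold lower. This interval did not reach those of HMGCS1 and FDFT1 and overlapped those of FDPS, NSDHL and INSIG1.

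NSDHL is the dehydrogenase that, with MSMO1 and HSD17B7, strips methyl groups from the sterol ring. Its brighter probe set gave 5.76, 6.40 and 5.25 in OBGF400, against 9.50, 9.90 and 9.70 in PK15. It was both the largest fall, -3.89 or 14.9-fold, and the least precise, with a 95% interval of -4.80 to -2.99 (limma adjusted p = 0.000961). The OBGF400 arrays spread by an SD of 0.57, where the median SD within a line was 0.23 for probe sets of signal 4 to 6. With 32 added to the linear values, which damps differences at low signal, the difference was -3.28. The second NSDHL probe set gave 5.06, 4.76 and 5.33 in OBGF400, against 5.65, 5.67 and 6.07 in PK15. These values lie close together, and the difference of -0.75 (95% interval -1.29 to -0.20, limma adjusted p = 0.0432) is a fall in the same direction but 1.68-fold. It became 0.07 after scaling on the hybridization controls. It was no longer called when OBGF400 replicate 1, OBGF400 replicate 2 or any PK15 replicate was left out (adjusted p up to 0.123). The call was also lost with array weights (limma adjusted p = 0.074) and at the threshold of 0.01. The size of the NSDHL fall therefore rests on the probe set used.

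INSIG1 is no enzyme: it retains the SCAP and SREBF2 complex in the endoplasmic reticulum, and its own gene is a target of SREBF2. Its brighter probe set gave 8.30, 8.15 and 8.27 in OBGF400, against 11.09, 11.04 and 11.12 in PK15. The lines did not overlap, and the difference of -2.85 (95% interval -2.98 to -2.71, limma adjusted p = 9.16e-06) placed it between FDPS and SQLE. The second INSIG1 probe set was near the lower limit of 2.13, at 2.18, 2.22 and 2.13 in OBGF400, against 3.37, 2.72 and 3.15 in PK15. Its difference of -0.90 (limma adjusted p = 0.0173) was -0.15 with 32 added and depends on where that limit lies. The call was lost under several settings, among them without any single OBGF400 replicate or without PK15 replicate 3 (adjusted p up to 0.0675), and after hybridization control scaling (-0.08). All 8 probe sets of the 6 genes were called lower, as were 21.7% of all probe sets.

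Leaving NSDHL aside, the differences ran from -2.36 to -2.98, and their SD between arrays of a line was at most 0.12, near the median of 0.12 for probe sets of signal 8 to 10. Averaged over the 6 genes, the signal was 8.24, 8.35 and 8.11 on the OBGF400 arrays and 11.1, 11.2 and 11.1 on the PK15 arrays. OBGF400 replicate 3 had the lowest value of its line for 4 of the 6 genes and the highest for 0. No PK15 array was the lowest for more than 2. Among all genes, ordered from the largest fall, NSDHL stood at position 271, SQLE at 389, INSIG1 at 422, FDPS at 436, FDFT1 at 507 and HMGCS1 at 537 of 6765.

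The rest of the synthesis route was read from a list of 16 further enzymes and helpers, of which 7 were measured. Of these 6 fell, 0 rose and 1 was not called, with a median difference of -2.03. Among all genes 35.4% were called lower and 22.7% higher. ACAT2, the thiolase of the first step, had 9.93 ± 0.05 in OBGF400 and 11.70 ± 0.04 in PK15 (SD, n = 3 each), a difference of -1.77 (limma adjusted p = 1.59e-05). CYP51A1, which removes the first of the ring methyl groups, fell by 2.03 to 10.79 ± 0.11 in OBGF400, against 12.82 ± 0.10 in PK15 (SD, n = 3 each, limma adjusted p = 9.35e-05). The partners of NSDHL in the next removals moved with it but less: MSMO1 by -2.07, HSD17B7 by -2.04 and ERG28, known in yeast as the scaffold of this complex, by -2.38. The interval of NSDHL (-4.80 to -2.99) did not reach that of any of these 3, the nearest being ERG28 at -2.74 to -2.02, but its second probe set lay above all of them. A dimmer MSMO1 probe set was called lower, at -1.69 (limma adjusted p = 0.0035), and another was at the lower limit in both lines. SC5D, a desaturase near the end of the route, differed by -1.78 (95% interval -1.96 to -1.60). The gene not called was TM7SF2, a sterol reductase singled out after its values were seen. Its signal was 5.96 on each of the 3 OBGF400 arrays and 5.95 to 5.97 in PK15, and such a repeated value is no measure of precision. MVK, PMVK, MVD, GGPS1, LBR, EBP and DHCR7 are among those without a probe set named with 1 symbol.

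**Figure D2:**
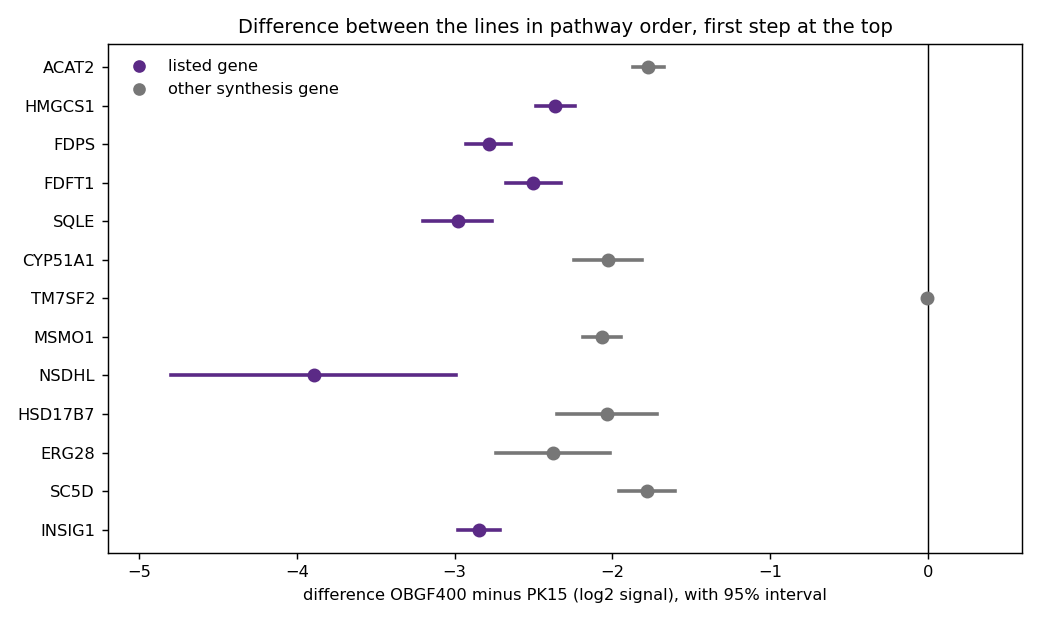
Difference in log2 signal (OBGF400 minus PK15) with its 95% interval for each measured synthesis gene, ordered by step from top to bottom, with ERG28, a scaffold, beside its complex and INSIG1, a regulator, last; purple marks the 6 measured listed genes and grey the other 7. Every gene except TM7SF2 lies between -1.77 and -3.89, and NSDHL has the widest interval.

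The sterol-sensing and uptake genes differed from one to the next. Of 9 measured genes of sensing and uptake, 3 were lower and 1 higher in OBGF400, beside 35.4% lower and 22.7% higher among all genes. The other 5 did not pass the test, and the median was -0.15. SREBF2, the transcription factor of the pathway, had 5.60, 5.44 and 5.60 in OBGF400, against 7.04, 7.10 and 7.44 in PK15, without overlap. The difference was -1.64 (limma adjusted p = 0.000755), given by 1 of its 4 probe sets, the brightest. The other 3 were dim and not called, at -0.47, 0.08 and 0.00. SCAP, the escort of SREBF2, averaged 8.13 ± 0.11 in OBGF400, against 8.21 ± 0.12 in PK15 (SD, n = 3 each), a difference of -0.08 with a 95% interval of -0.32 to 0.16. INSIG2, the paralogue of INSIG1, averaged 7.94 ± 0.16 in OBGF400, against 8.34 ± 0.18 in PK15 (SD, n = 3 each). Its difference of -0.40 (95% interval -0.76 to -0.04, limma adjusted p = 0.0786) was not called and lay outside the INSIG1 interval of -2.98 to -2.71. It was called lower after median centring (-0.48), after poly-A control scaling (-1.26) and with either filter on dim probe sets, and it was 0.42 after hybridization control scaling. SREBF1, which serves mainly fatty acid synthesis, was at the lower limit in both lines.

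Among the uptake and transport genes, SCARB1 and NPC2 were called lower, and MYLIP, which acts against uptake, was called higher. SCARB1, the receptor for high-density lipoprotein, had 5.93, 5.49 and 5.75 in OBGF400, against 9.53, 9.80 and 9.92 in PK15. The lines were far apart, by -4.03 (limma adjusted p = 0.000103), larger than the estimate of any listed gene but inside the interval of NSDHL. MYLIP, a ubiquitin ligase that limits lipoprotein uptake, had 7.32, 6.99 and 7.47 in OBGF400, against 2.50, 2.39 and 2.40 in PK15. It rose by 4.83 (limma adjusted p = 3.77e-05), or 2.31 with 32 added, and its PK15 signal was near the lower limit. NPC2, a lysosomal cholesterol carrier, differed by -0.17 by its brightest probe set (limma adjusted p = 0.0269) and by 0.15, not called, by another bright one. The mean of its probe sets gave -0.007, not called, and hybridization control scaling turned the sign (0.65). With the brightest probe set the call was lost with array weights, with a trended and robust variance, with the filter at the median, and without OBGF400 replicate 2 or without any single PK15 replicate (adjusted p up to 0.092).

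Most sterol export, esterification and oxysterol genes did not pass the test. Of 9 measured, 1 was lower and 2 were higher in OBGF400, beside 35.4% lower and 22.7% higher among all genes. The other 6 did not pass the test, and the median was 0.03. Of the 6, CYP27A1 and NCEH1 were at the lower limit in both lines and held no measurable signal. CH25H was dim, at 4.02 in OBGF400 and 3.99 in PK15, where the same value was repeated on every array. ABCA1, which exports cholesterol to apolipoproteins, had 6.53, 6.73 and 6.97 in OBGF400, against 2.72, 2.72 and 2.77 in PK15. It rose by 4.004 on the log2 scale (limma adjusted p = 4.71e-05), or 1.85 with 32 added. Its PK15 signal was near the lower limit, so the size of the rise depends on where that limit lies. NR1H3, the oxysterol-activated receptor that drives ABCA1 and MYLIP, was higher by 0.96 (8.48 ± 0.07 in OBGF400 and 7.51 ± 0.19 in PK15, SD, n = 3 each, limma adjusted p = 0.00252), a call lost after poly-A control scaling (0.11). LIPA, the lysosomal lipase that frees cholesterol from its esters, had a difference of -1.55 (limma adjusted p = 9.48e-05) by its brighter probe set. The other probe set was also called lower, by -5.49 (limma adjusted p = 1.21e-05), or -3.07 with 32 added. Its OBGF400 signal was near the lower limit.

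Fatty acid synthesis, the other arm controlled by SREBF proteins, was lower for 8 of 12 measured genes and higher for 2, with a median of -0.76. Among all genes 35.4% were called lower and 22.7% higher. With any 1 array left out, 7 of the 12 were called lower. After hybridization control scaling the counts were 4 lower and 5 higher. That scaling moved the median of all genes to 0.82, so the shares above do not apply to these counts. SCD, the desaturase that makes oleate, had 7.71, 7.51 and 7.65 in OBGF400, against 11.85, 11.76 and 11.82 in PK15. Its difference of -4.19, or 18.2-fold lower (limma adjusted p = 6.73e-06), was larger than the estimate of each of the 6 listed genes but inside the interval of NSDHL. ELOVL6, an elongase, differed by -3.37 by its brightest probe set. Its dimmer probe sets gave -3.44, -2.09 and -0.40, of which the last was not called. FADS1, a desaturase of polyunsaturated fatty acids, differed by -1.77. ACSL4, an acyl-CoA synthetase with preference for arachidonate, rose by 2.64 to 14.47 ± 0.04 in OBGF400, against 11.83 ± 0.09 in PK15 (SD, n = 3 each, limma adjusted p = 1.57e-05). FADS2 was called higher by 1.45 (limma adjusted p = 0.0195), but it was not called when replicate 1 or 2 of either line was left out (adjusted p up to 0.0728, differences of 1.31 to 1.36).

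The branches that take isoprenoids from FDPS to other products also held mostly genes that did not pass the test. Of 7 measured genes 1 was lower and 1 higher in OBGF400, beside 35.4% lower and 22.7% higher among all genes. The other 5 did not pass the test, and the median was -0.01. RCE1, 1 of the 5, was at the lower limit in OBGF400 and averaged 2.30 in PK15. FNTB was not called by its brighter probe set (0.15), but its dimmer one was called higher by 0.74 (limma adjusted p = 0.025). NUS1, a subunit of the dolichol-forming prenyltransferase, rose by 1.45 (9.90 ± 0.14 in OBGF400 and 8.45 ± 0.09 in PK15, SD, n = 3 each, limma adjusted p = 0.000392). ICMT, which methylates prenylated proteins, fell by 1.26 (8.02 ± 0.18 in OBGF400 and 9.29 ± 0.24 in PK15, SD, n = 3 each, limma adjusted p = 0.00389). No test between lists was run, so these counts and medians describe each list against the share of all genes called.

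**Figure D3:**
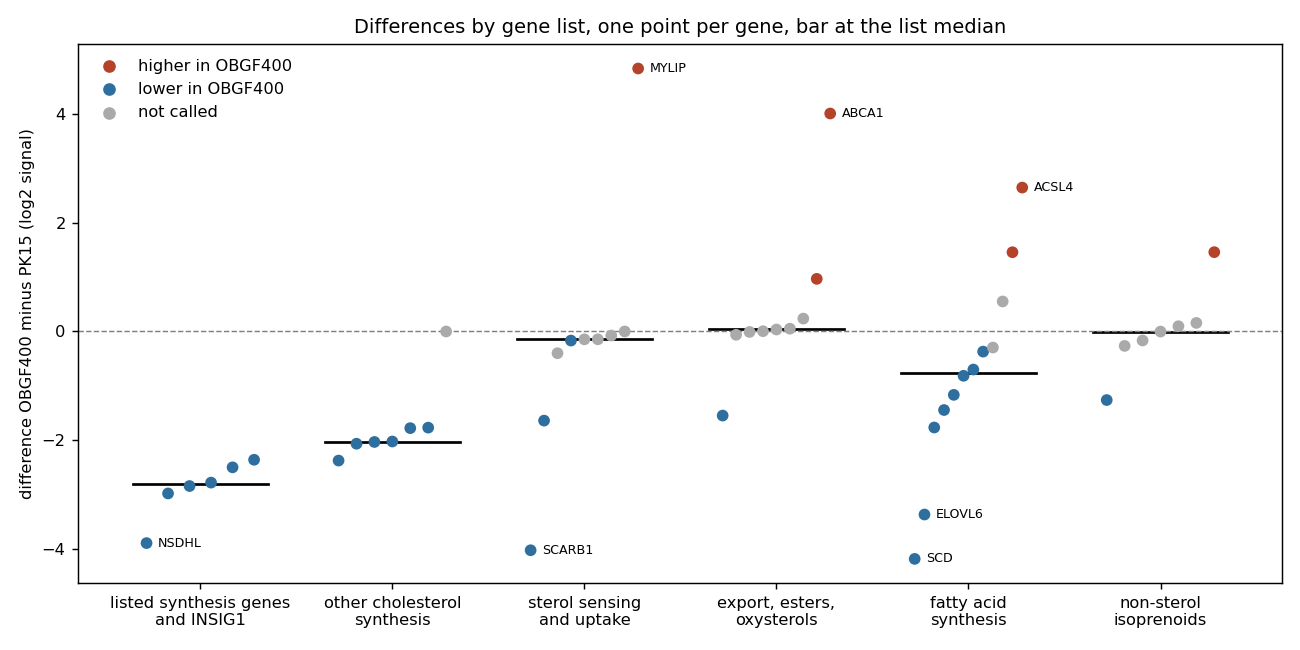
Difference in log2 signal (OBGF400 minus PK15) of each measured gene in 6 lists, coloured by its call in the limma fit, with a bar at each list's median. The listed genes and the other synthesis genes lie below 0 with medians of -2.81 and -2.03, while the remaining lists span both sides of 0.

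The genes whose signal over the 6 arrays was nearest to the mean profile of the 6 listed genes, by Euclidean distance of gene-centred log2 values, were IDH1, C13H21orf59, LSM6, NUDT4 and BBIP1, at distances of 0.15 to 0.21. IDH1, the cytosolic isocitrate dehydrogenase that yields NADPH, had 8.20, 8.15 and 8.07 in OBGF400, against 11.001, 11.11 and 11.10 in PK15, a difference of -2.93. The profile is essentially the difference between the lines, so many genes share it. Of the listed genes SQLE lay at 0.17 and FDPS at 0.20 from the mean profile, with 1 and 4 other genes closer. INSIG1 lay at 0.28 with 17 closer and FDFT1 at 0.52 with 83 closer. HMGCS1 lay at 0.69 with 142 closer and NSDHL at 1.41 with 478 closer. Each listed gene is itself part of the mean profile, which draws the profile towards it, so its closeness is partly built in.

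Scaling changed the size of the 6 falls but not their direction. Centring the arrays on the hybridization controls moved the median of all genes to 0.82 and that of the 6 listed genes to -1.99. Centring on the poly-A controls (dap and thr) moved them to -0.86 and -3.67. Such a scaling adds the same constant to every gene of an array, so it leaves the distance between the listed genes and all genes as it was. Over the 18 alternatives HMGCS1 ranged from -3.22 to -1.54 and INSIG1 from -3.70 to -1.87, and the highest limma adjusted p of any of the 6 was 0.0115, for NSDHL.

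**Figure D4:**
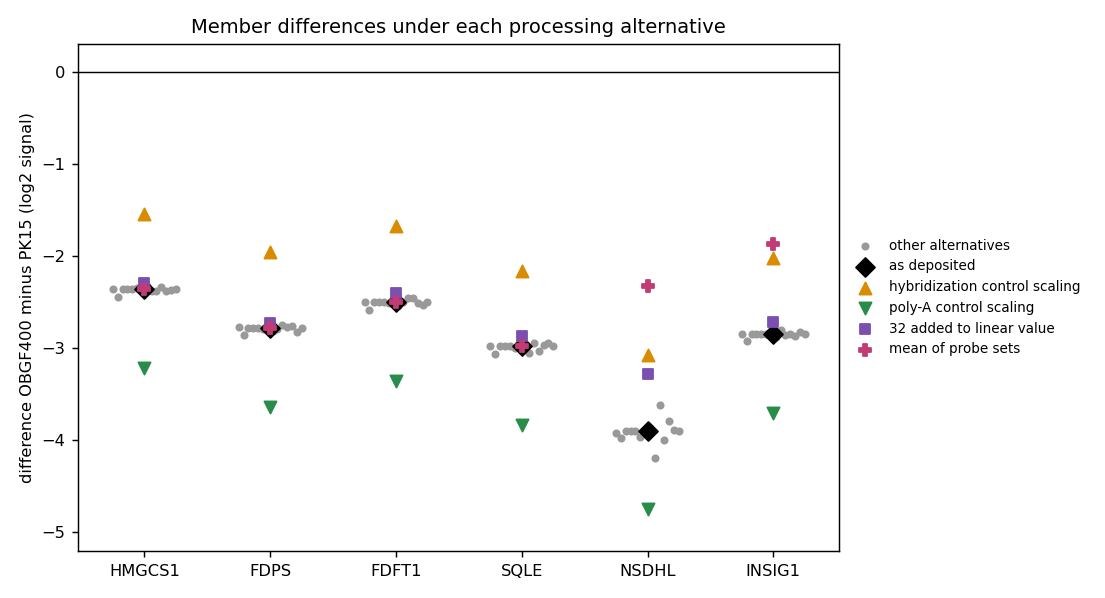
Difference in log2 signal (OBGF400 minus PK15) of the 6 measured genes as deposited (black diamonds) and under 18 processing alternatives (other symbols and grey points). All points lie below -1.5; the control scalings shift each gene up or down by the same amount, and averaging the probe sets shortens the fall of NSDHL and INSIG1.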

How the data were processed

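RNA of 6 pools of cultures, 3 per line, was labelled by a 3′ one-cycle method from 8 µg of total RNA each and hybridized to Affymetrix porcine arrays, per the labels' protocols. Each value of the deposited table is a log2 signal of 1 probe set on 1 array. Only the package affy is named in the submitters' processing notes, and how signals were background-corrected, summarised and normalized is not given in the sources used here. Distributions were nearly equal over the 6 columns (means of 5.41 to 5.42) and a shared lower limit of 2.13, and 25.8% to 27.3% of the values of an array were at that array's minimum. The table holds no detection calls, and the number of arrays limits the precision.

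Of 24123 probe sets, 124 controls were left out and 23999 tested with limma 3.58.1 (lmFit and eBayes, two-sided) under R 4.3.3; p-values were adjusted by Benjamini-Hochberg over all of them, with a threshold of 0.05; the fit was tested on simulated data. Differences are OBGF400 minus PK15. With 3 arrays against 3, an exact permutation test cannot go below 0.1. Symbols came from the platform annotation (10069 probe sets with 1 symbol, 198 with several, 13732 with none). Each gene was represented by its brightest probe set, by the mean of the 6 arrays. A gene within 0.1 of the lower limit on all arrays of a line was called at the limit. No coordinates are given because no build is named for the probes. The genes and lists were chosen with earlier results of these data known. Named genes were the 8 listed ones, in each pathway list the called genes that rose or fell most (3 at most in either direction), fixed regulators and enzymes, and the 5 nearest profiles. Alternatives were other normalizations, control scalings, filters on dim probe sets, variance models, array weights, 32 added to linear values, averaged probe sets, a stricter threshold (0.01), a block on the replicate number and leaving out each array.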

Additional observations from a re-analysis of the deposited data

How the results depend on the processing

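The 6 listed genes were called lower, and none higher, under each of the 18 alternatives. Their median difference was -1.99 with hybridization control scaling, -3.67 with poly-A control scaling, -2.72 with 32 added and -2.43 with averaged probe sets, and -2.85 to -2.79 when 1 array was left out. Genes higher and lower in OBGF400 numbered 1538 and 2394 as deposited, 4498 and 1264 with hybridization control scaling and 763 and 5221 with poly-A control scaling; median centring gave 3954 lower. For probe sets, 4846 and 5214 became 18578 and 2980, and 2763 and 18830, with 14431 lower after median centring. Many of these are genes at the lower limit in both lines, which a control scaling moves by a constant.

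With hybridization control scaling, 1 other synthesis gene, 7 sensing, 8 export, 5 fatty acid and 6 isoprenoid genes were higher, and 4 fatty acid genes lower. After centring on the poly-A controls, 8 sensing, 7 export and 6 isoprenoid genes were called lower, and 1 export gene was called higher. The lists held 7 other synthesis, 9 sensing, 9 export, 12 fatty acid and 7 isoprenoid measured genes. Of the 6765 genes, 5221 were lower with the poly-A controls and 4498 higher with the hybridization controls. Each control scaling adds a constant to all genes of an array. The list counts under it therefore cannot be read as changes particular to a list. Median centring gave 5 sensing, 3 export and 2 isoprenoid genes lower, the filter at the median 2 isoprenoid genes lower, and averaged probe sets 2 isoprenoid genes higher. Higher fatty acid genes numbered 1 with the replicate block and at a threshold of 0.01. With 1 array left out, 1 to 2 fatty acid and 1 to 2 isoprenoid genes were higher, and 7 fatty acid genes were lower. Signs turned under hybridization control scaling for INSIG2 (0.42), NPC2 (0.65), SCAP (0.74), SREBF1 (0.82) and the second NSDHL probe set (0.075).

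Same-numbered arrays of the lines showed little shared deviation (correlations of deviations across probe sets of 0.007 to 0.039). Arrays of unlike number gave -0.0425 to 0.0278. Values this small show no pairing by number, but they cannot exclude that same-numbered cultures were handled together. The main fit used no block. The fit with the replicate block left 6 of 6 listed genes lower (median -2.81). It lost the calls of FADS2 (adjusted p = 0.127) and of the second INSIG1 probe set (adjusted p = 0.0748, limma).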
